A study of Mus musculus with 12 samples.

Results

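The cytosolic ribosome is built from rRNAs and a set of ribosomal proteins, and the mRNAs of these proteins were followed in follicular (FO) B cells of the mouse spleen. Members were all rows of the count table that are annotated as protein coding and whose symbol is Rpl, Rps or Rplp followed by a number. The S6 kinases (Rps6k genes), Rps19bp1 and Rps27l were left out. The rule used names only and no measured value. It gave 85 of the 22561 genes in the table, 32 of the small (40S) subunit and 53 of the large (60S) subunit, on 20 chromosomes. Of these, 83 passed the filter on low counts and were tested. Rpl39l had 0 or 1 count in every sample, and Rpl24 had between 3 and 15 counts, so neither was tested. Rpl24 overlaps the gene model Gm28037. Symbols of 5 members name them as copies of other members (Rpl10-ps3, Rpl36a-ps1, Rpl9-ps6, Rps18-ps5 and Rps27rt).

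The stated purpose was to describe how gene expression looks in FO B cells that receive CpG and IFNα together. FO B cells were sorted by FACS from spleens of C57BL6 mice, 10 weeks old, which carried no transgene or deletion in the labels of these samples. There were 4 groups of 3 samples. One was unstimulated, and the others were stimulated over 12 h with IFNα, with CpG, or with CpG + IFNα. The dose of CpG was 1 μg/mL, and that of IFNα was 0.1 μg/mL. CpG is a DNA oligonucleotide that TLR9 senses, and type I interferons include IFNα. Neither the labels nor the methods state whether unstimulated cells were kept in culture or whether the 3 samples of a group came from separate mice, so that p-values measure the spread between these samples, which may be technical.

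Ribosomal protein genes are transcribed at high rates in all cells, and most of their mRNAs start with a 5′ terminal oligopyrimidine (TOP) stretch, a C followed by a run of C and U. This stretch is bound by Larp1 and places their translation under control of mTORC1. Resting B cells are small and translate little, and activation through antigen receptor or TLR is known to enlarge them and to raise ribosome production. An mRNA level does not measure translation, which was not assayed here.

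UMI counts were between 922450 and 2923865 per sample, with lower totals in unstimulated cells (922450 to 1103064) than with CpG (1393018 to 1985810). Each UMI stands for a molecule caught at its poly(A) end, and counts do not grow with transcript length. Values below are CPM, counts scaled to a common library total with TMM factors, and measure a gene's portion of the captured mRNA. The marker sums in this paragraph are scaled by the total counts of each sample only, without TMM factors. More mRNA per cell, or another number of cells, cannot be told apart from the portion in these bulk samples. B cell markers (7 of 7 detected) had summed levels of 7240 to 8460 CPM in unstimulated cells and of 6200 to 6980 CPM after IFNα, but of 1320 to 1460 CPM after CpG and of 1120 to 1280 CPM after CpG + IFNα. T cell markers (3 of 5 in the table, of which 2 were at 0 in all samples) reached at most 1.82 CPM, and NK markers at most 1.22 CPM. Markers of plasma cells (4 of 4 in the table) summed to 95.3 to 149 CPM without CpG and to 45.5 to 80.1 CPM with it, and those of plasmacytoid dendritic cells to at most 6.51 CPM. Summed myeloid markers (5 of 6 in the table) ranged from 4.53 to 22.8 CPM in unstimulated cells and from 0.526 to 3.02 CPM in cells that received CpG. Erythroid markers varied most, from 58.9 to 345 CPM in unstimulated cells, 14.8 to 312 with IFNα and 5.04 to 70.0 in cells with CpG. Markers of marginal zone B cells summed to 214 to 220 CPM in unstimulated cells to 81.5 to 118 CPM after IFNα, and to 27.1 to 55.3 CPM with CpG or CpG + IFNα. Their part in the results below was not tested.

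The second IFNα sample stood apart. It had the highest portion of rRNA counts (9.02%, against 1.93% to 6.30% in the other 11 samples) and of mitochondrial counts (8.52%, against 2.99% to 7.70%), and 77 of the 83 members lay below their unstimulated mean in it. The main counts of members called with IFNα alone, and the values of the members named there as higher or lower, are therefore given with and without this sample. The part of rRNA and mitochondrial RNA in them was not tested. The second CpG + IFNα sample also departed from its group. It had 4.68% rRNA counts, against 2.64% and 1.93%. Chi-square against counting error was 4.84 and 6.96 per degree of freedom in its pairs and 2.78 in the other pair. For the second IFNα sample these were 4.71 and 6.40, and 2.25. Counts without the second CpG + IFNα sample are given in the last section.

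Ribosomal protein genes have many processed copies in the genome, and reads of 81 bases cannot always be assigned between them. In GENCODE M21, 74 of 85 members shared at least 1 exact window of 81 bases from the last 400 bases of their coding transcripts with another gene. More than 50% of windows were shared by 35 members, and 2 members, Rpl5 and Rpl36a, shared all of them. No window was shared by 11 members, among them Rpl4, Rpl7l1, Rpl12, Rpl27a, Rpl37, Rpl37a, Rps3, Rps16 and Rps20. Exons of 18 members overlapped those of another gene. The sources used here do not state whether reads with several positions were counted, nor the strand setting. Levels of members with shared 3′ ends are thus uncertain, and the percentage of shared windows is given beside several of the genes described. It was 55.3% in Rps26, 46.1% in Rps27, 53.7% in Rps18, 65.9% in Rpl27, 9.06% in Rpl39 and 3.18% in Rps21.

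Start sites show where members carry a TOP-like stretch. RefSeq (GRCm38.p6) had promoter windows, from 250 bases before to 50 bases after the start, for 61 of the 85 members. A run of at least 8 C or T within 25 bases of the start was found in 32 of them (52.5%), against 22.3% of all 27025 gene symbols. A gene counted if any of its starts had the feature. The letters CCGGAAG, on either strand, were in 24 members (39.3%) against 9.9% of all gene symbols, and AAGATGGCG, on either strand, in 4 members (6.6%) against 1.6%. The last 3 letters of the former and the first 3 of the latter can overlap. A match only describes the letters, and annotated starts can miss the base at which transcription begins. The windows that follow run from 45 bases before to 15 bases after the annotated start, 5′ to 3′, with the longest run of C and T inside the window in capitals. The runs of Rpl13a and Rps12 go on past the last base printed. They are shown for members that led the changes in the sections below and for the most abundant ones. Among members that rose most with CpG were these:
Rpl7l1 (chr17:46782642-46782701, minus strand): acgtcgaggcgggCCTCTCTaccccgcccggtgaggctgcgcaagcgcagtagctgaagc
Rps2 (chr17:24720018-24720077, plus strand): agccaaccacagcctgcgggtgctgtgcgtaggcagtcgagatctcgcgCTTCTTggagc
Rpl7a (chr2:26910762-26910821, plus strand): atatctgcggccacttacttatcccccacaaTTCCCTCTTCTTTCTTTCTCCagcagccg
Rps26 (chr10:128626492-128626551, minus strand): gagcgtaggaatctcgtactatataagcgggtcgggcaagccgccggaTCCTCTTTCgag
Rpl14 (chr9:120571472-120571531, plus strand): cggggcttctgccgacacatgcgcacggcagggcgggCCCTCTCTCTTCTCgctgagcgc
Rpl15 (chr14:18270972-18271031, minus strand): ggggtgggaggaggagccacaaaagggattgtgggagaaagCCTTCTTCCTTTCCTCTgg

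In Rpl7a the run was 21 bases long and began 14 bases before the start, in Rpl15 it was 17 bases, and in Rpl14 it was 14 bases. Rps2 and Rpl7l1, which had the 2 largest increases with CpG, had runs of only 6 and 7 bases. Members that fell with CpG were these:
Rps27 (chr3:90213634-90213693, minus strand): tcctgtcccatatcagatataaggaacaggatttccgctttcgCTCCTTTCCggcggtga
Rps27rt (chr9:114982725-114982784, minus strand): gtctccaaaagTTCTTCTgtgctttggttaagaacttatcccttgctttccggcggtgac
Rpl22l1 (chr3:28805463-28805522, plus strand): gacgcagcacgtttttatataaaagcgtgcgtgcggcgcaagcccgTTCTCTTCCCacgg

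The longest run was 9 bases in Rps27, where it crossed the annotated start, 10 bases in Rpl22l1 and 7 bases in Rps27rt. Windows of other members named in the results on IFNα and CpG + IFNα were these:
Rps18 (chr17:33955651-33955710, minus strand): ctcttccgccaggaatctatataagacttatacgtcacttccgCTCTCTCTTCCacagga
Rpl27 (chr11:101442200-101442259, plus strand): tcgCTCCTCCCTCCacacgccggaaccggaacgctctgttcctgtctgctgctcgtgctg
Rpl13a (chr7:45128731-45128790, minus strand): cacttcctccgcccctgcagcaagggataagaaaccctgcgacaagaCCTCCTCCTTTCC
Rpl37a (chr1:72711215-72711274, plus strand): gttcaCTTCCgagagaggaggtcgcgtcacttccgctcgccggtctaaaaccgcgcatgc
Rpl39 (chrX:37085208-37085267, minus strand): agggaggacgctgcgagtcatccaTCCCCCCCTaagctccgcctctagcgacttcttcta
Rps21 start 1 (chr2:180257334-180257393, plus strand): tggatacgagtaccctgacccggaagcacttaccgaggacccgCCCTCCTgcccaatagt
Rps21 start 2 (chr2:180257404-180257463, plus strand): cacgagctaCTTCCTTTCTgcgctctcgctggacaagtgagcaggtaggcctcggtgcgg

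Among the most abundant members in unstimulated cells, Rps24, Rps12 and Rpl13 had an entry:
Rps24 start 1 (chr14:24490633-24490692, plus strand): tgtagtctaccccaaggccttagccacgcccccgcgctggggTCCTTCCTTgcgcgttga
Rps24 start 2 (chr14:24490708-24490767, plus strand): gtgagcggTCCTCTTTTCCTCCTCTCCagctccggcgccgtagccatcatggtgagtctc
Rps12 (chr10:23787195-23787254, minus strand): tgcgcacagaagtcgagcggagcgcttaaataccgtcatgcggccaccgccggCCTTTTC
Rpl13 (chr8:123102305-123102364, plus strand): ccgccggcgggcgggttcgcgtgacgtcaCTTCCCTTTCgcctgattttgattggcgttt

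In unstimulated cells, Rps24, a protein of the small subunit, was among the most abundant members at 3886 ± 87.8 CPM (SD, n = 3). Rps12 (3330 ± 178 CPM), Rpl13 (3312 ± 69.0 CPM) and Rplp1 (3284 ± 182 CPM) were lower and lay within each other's spread. At the low end were Rpl36a-ps1 (17.5 ± 2.43 CPM), Rpl23a (25.2 ± 6.47 CPM), Rpl36al (44.96 ± 5.84 CPM), Rps10 (66.2 ± 5.41 CPM) and Rps18-ps5 (69.1 ± 5.26 CPM). Most of these proteins are held in equal number in a ribosome, but the UMI counts of their mRNAs spanned more than 2 orders of magnitude. In the low group Rpl23a shared 84.4% of its 3′ windows with other genes, Rpl36al 74.2%, Rps18-ps5 77.5%, Rpl36a-ps1 64.7% and Rps10 44.4%. Across the 83 members, the rank correlation between shared windows and the unstimulated level was -0.34 (Spearman's rho, a description over genes counted in the same libraries). The order of levels was kept across groups, with a rank correlation to unstimulated cells of 0.99 for IFNα, 0.92 for CpG and 0.91 for CpG + IFNα. The median coefficient of variation of members over 3 samples was 14.1% after IFNα, against 4.14% in unstimulated cells, 6.99% after CpG and 6.08% after CpG + IFNα.

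Together, members held 12.02%, 12.62% and 12.79% of all UMI counts in the 3 unstimulated samples. With IFNα they held 12.97%, 10.41% and 12.55%, with CpG 18.34%, 16.94% and 16.41%, and with CpG + IFNα 16.61%, 15.23% and 16.46%. Thus all 6 samples with CpG lay above all 6 samples without it, while IFNα and unstimulated samples overlapped, and so did CpG + IFNα and CpG samples. The mean was 17.2% ± 0.997 (SD, n = 3) after CpG and 16.1% ± 0.757 after CpG + IFNα, against 12.5% ± 0.405 in unstimulated cells and 12.0% ± 1.37 after IFNα. Without the second IFNα sample the IFNα mean was 12.8%. Small subunit genes held 5.98% ± 0.191 of counts in unstimulated cells and 7.79% ± 0.455 with CpG, and large subunit genes held 6.49% ± 0.220 and 9.45% ± 0.546. These shares are given without a test. The plot of counts by sample shows both. Mitochondrial counts made up 6.92% ± 0.828 in unstimulated cells and 4.24% ± 0.834 with CpG, and their part in the share of members was not tested. With rRNA and mitochondrial genes left out of the total, members held 13.5% in unstimulated cells and 18.2% with CpG. Rows named as copies of ribosomal protein genes that are not members (230 rows) held 0.381% ± 0.0112 in unstimulated cells and 0.591% ± 0.0379 with CpG.

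**Figure D1:**
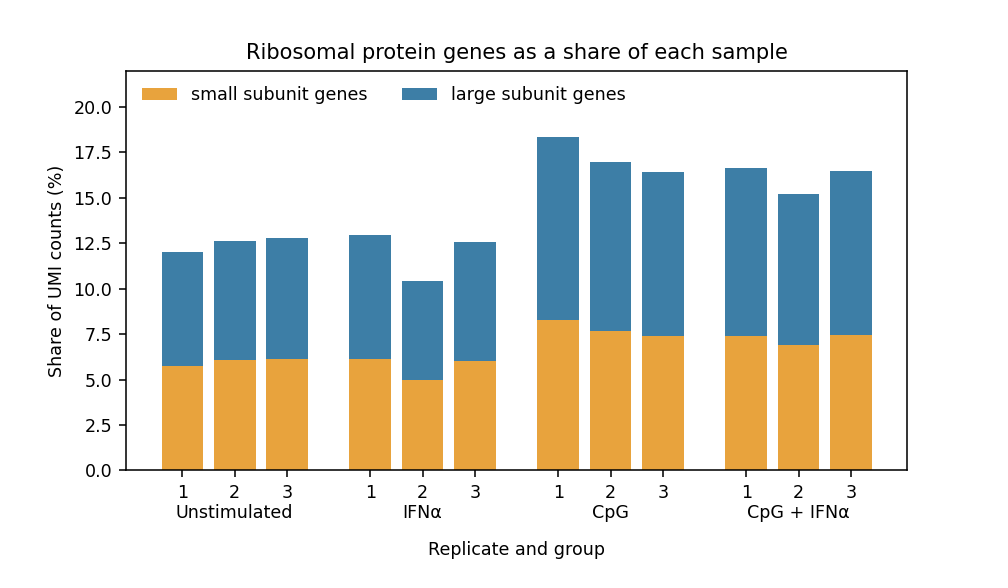
Share of UMI counts in ribosomal protein genes (vertical axis, %) in each of the 12 samples, with small subunit genes at the bottom of each bar and large subunit genes on top. The 6 samples with CpG sit between 15.23% and 18.34%, and the 6 without CpG between 10.41% and 12.97%.

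CpG raised most ribosomal protein mRNAs by a modest amount. Of 83 members, 62 were higher than in unstimulated cells and 3 were lower at an adjusted p under 0.1 (edgeR's quasi-likelihood test, Benjamini-Hochberg over all 9431 genes tested). Of all genes tested, 36.5% were higher and 38.4% were lower. Among the other genes at 100 CPM or more, 51.9% were higher and 36.9% lower. The median log2 fold change of members was 0.56, with an interquartile range from 0.25 to 0.74, whereas the median over all genes tested was -0.03 with an interquartile range from -1.03 to 0.80. Members thus moved within a narrower range than other genes. Only 8 members rose and 2 fell by more than 2-fold with the same adjusted p, against 20.1% and 25.5% of all genes. In 68 members all CpG samples exceeded all unstimulated samples, which held for 36.1% of all genes, and in 4 all CpG samples were lower, which held for 37.1% of all genes. Large subunit genes had 42 of 51 higher and a median of 0.62, and small subunit genes had 20 of 32 higher and a median of 0.34. The difference between the subunits was not tested. Upper quartile scaling, the scaling that moved the median of all genes most (by 0.13), gave a member median of 0.45 with 58 higher and 4 lower. The shares of all genes called under that scaling are not given.

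**Figure D2:**
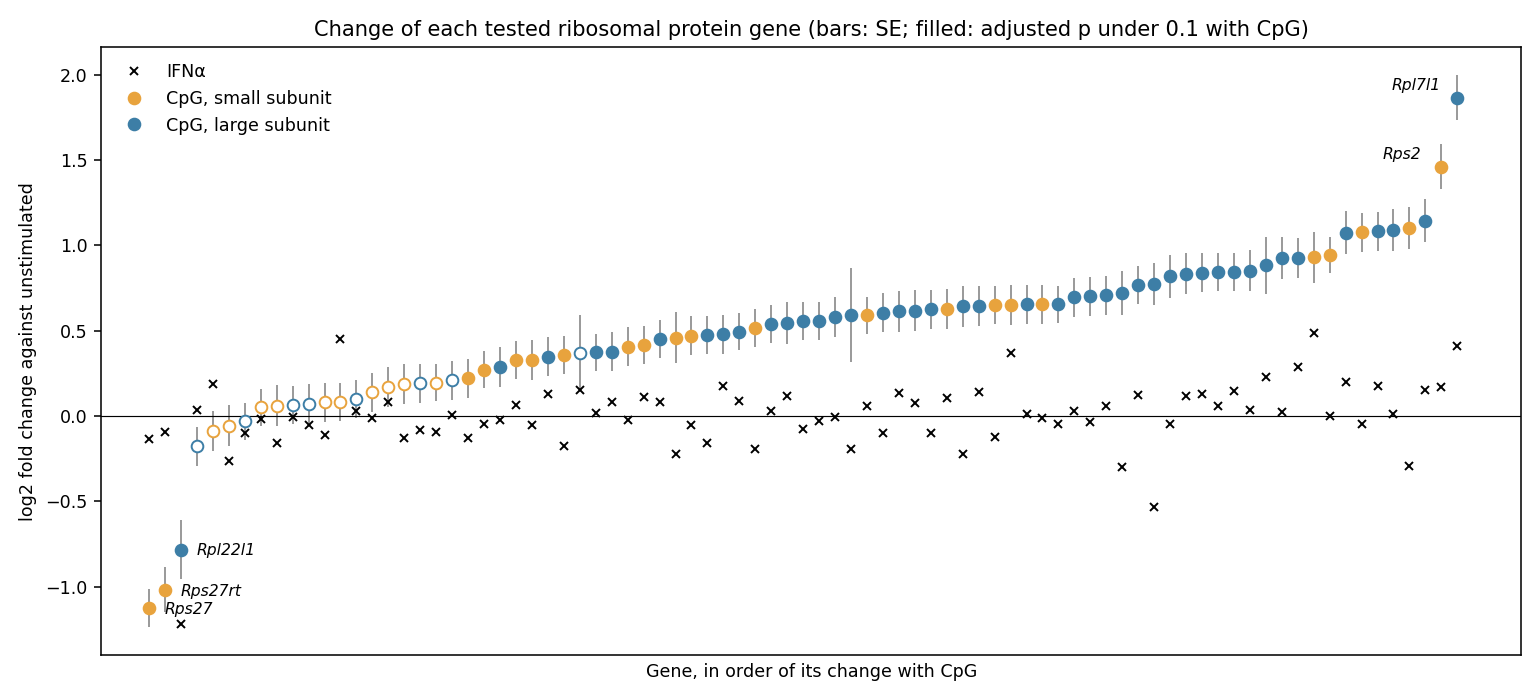
Log2 fold change against unstimulated cells (vertical axis) for each of the 83 tested genes, ordered by the change with CpG. Circles are CpG with SE bars, filled where the adjusted p was under 0.1, and crosses are IFNα. Most circles lie between 0 and 1, Rpl7l1 and Rps2 lie at 1.87 and 1.46, and Rps27, Rps27rt and Rpl22l1 lie below -0.7.

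**Figure D3:**
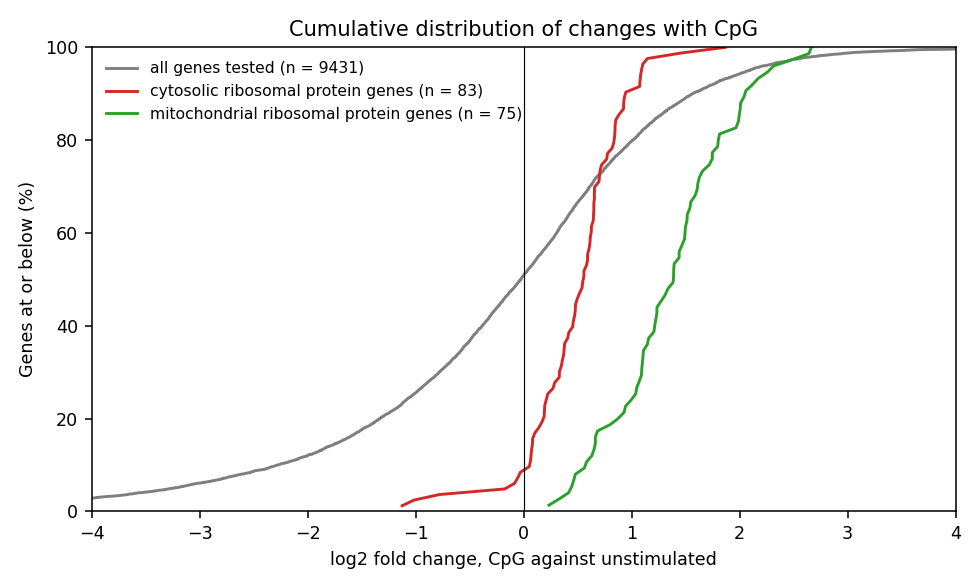
Percentage of genes at or below a log2 fold change with CpG (horizontal axis) for all 9431 genes tested, the 83 cytosolic and the 75 mitochondrial ribosomal protein genes. The curve of cytosolic genes is steep and crosses 50% at 0.56, and that of mitochondrial genes crosses it at 1.39.

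Rpl7l1 had the largest increase. It is a relative of Rpl7 whose yeast counterpart is an assembly factor of the large subunit rather than part of the mature ribosome (chromosome 17, 46773907 to 46782672 of GRCm38), and none of its 3′ windows were shared. Its values were 67.3, 69.5 and 89.1 CPM in unstimulated cells, 280, 282 and 267 CPM with CpG, and 307, 314 and 274 CPM with CpG + IFNα. All samples with CpG exceeded all without it. The log2 fold change with CpG was 1.87 (SE 0.132, adjusted p = 3.55e-14), a 3.65-fold increase. Rpl7 itself, the mature protein, went from 1360 ± 70.9 to 2221 ± 116 CPM (log2 fold change 0.71, adjusted p = 1.33e-06).

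Rps2, a 40S protein near the mRNA entry channel (chromosome 17, 24718116 to 24721929), was at 1854, 1947 and 2071 CPM in unstimulated cells and at 5942, 5238 and 4991 CPM with CpG. The groups did not overlap, and the log2 fold change was 1.46 (SE 0.131, adjusted p = 1.25e-11), which moved Rps2 to the top of all members. It shared 66.7% of its 3′ windows with 45 other genes. Rps26, which contacts mRNA at the exit channel, went from 1641, 1741 and 1692 CPM to 3766, 3594 and 3343 CPM, a log2 fold change of 1.08 (SE 0.115, adjusted p = 6.18e-10). In both of these genes the lowest CpG sample was above the highest unstimulated sample.

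On the large subunit, Rpl14 (chromosome 9, 120571444 to 120574654, 1.88% of windows shared) was at 1380, 1426 and 1374 CPM in unstimulated cells and at 3223, 2966 and 3052 CPM with CpG. Its log2 fold change was 1.15 (SE 0.126, adjusted p = 1.27e-09). Rpl7a went from 1276 ± 18.3 to 2700 ± 138 CPM (log2 fold change 1.08, adjusted p = 4.9e-10), Rpl15 from 244 ± 21.4 to 518 ± 22.5 CPM (1.09, adjusted p = 1.36e-09) and Rpl41, the smallest of the proteins, from 789 ± 116 to 1661 ± 250 CPM (1.07, adjusted p = 4.97e-09). Each more than doubled, and shared windows made up 84.1%, 54.4% and 29.4% of their 3′ ends.

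**Figure D4:**
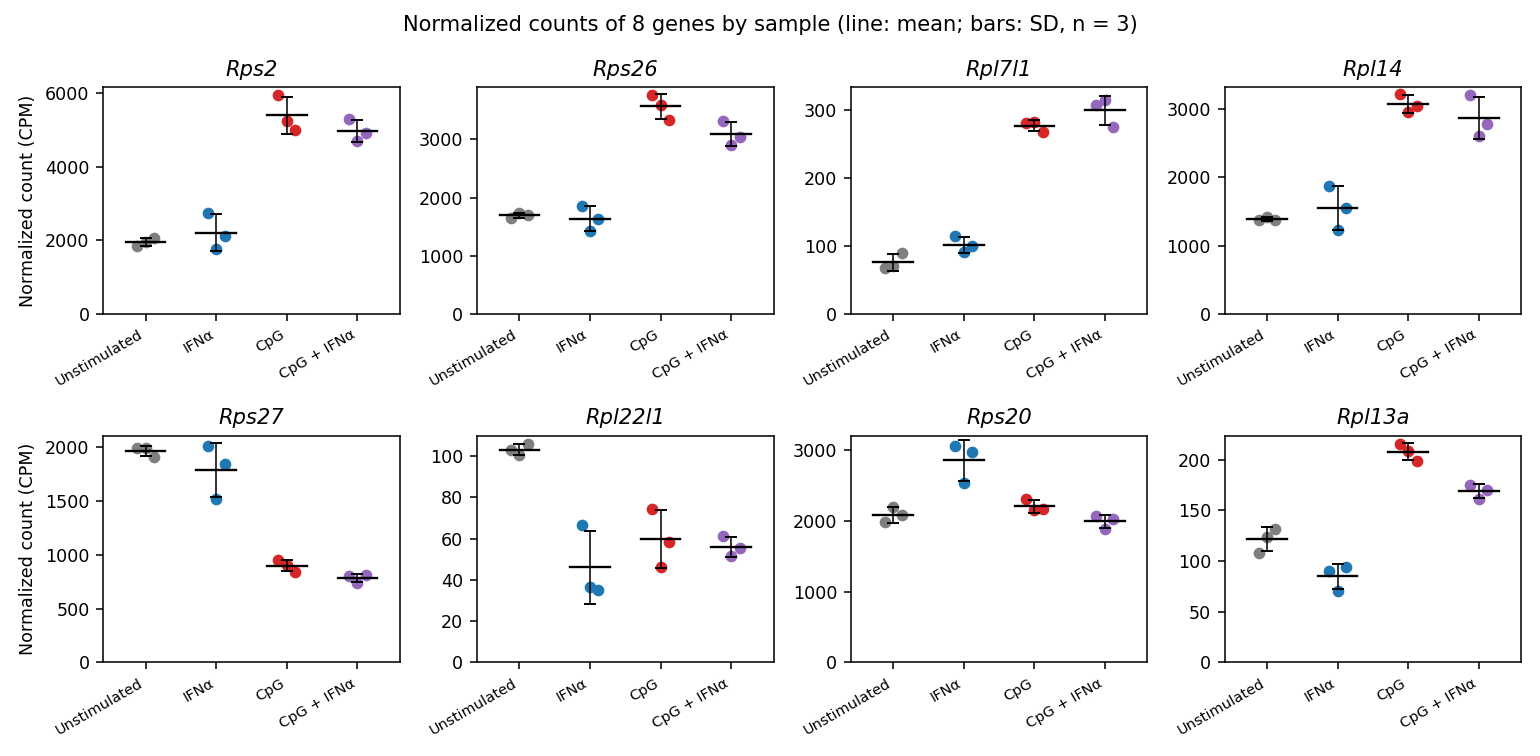
CPM (vertical axis, linear from 0) of 8 genes in each sample of the 4 groups, with the mean as a line and the SD as bars. Rps2, Rps26, Rpl7l1 and Rpl14 are high in all samples with CpG, Rps27 is low in them, Rpl22l1 is lower in all stimulated samples than in unstimulated ones, Rps20 is highest with IFNα alone, and Rpl13a is lowest with IFNα alone.

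Groups of members by role are read against the 74.7% of all members, 36.5% of all genes and 51.9% of the other genes at 100 CPM or more that were higher with CpG. Among the P stalk genes, whose proteins recruit translation factors to the large subunit, 3 of 4 rose with CpG. Rplp0, the stalk base, was at 2712, 2933 and 2869 CPM in unstimulated cells and at 5601, 5044 and 4720 CPM with CpG (log2 fold change 0.85, adjusted p = 1.56e-07). Rplp1 and Rplp2, the acidic proteins, had log2 fold changes of 0.58 and 0.48, while Rpl12 had 0.21 (adjusted p = 0.108). Both members of the 5S RNP, which bind Mdm2 when ribosome assembly is disturbed, rose: Rpl5 by 0.54 (adjusted p = 7e-05) and Rpl11 by 0.85 (adjusted p = 5.85e-08) on the log2 scale. Rps6, the protein that S6 kinases phosphorylate, was at 485.9, 462 and 506 CPM in unstimulated cells and at 819.6, 728 and 740.4 CPM with CpG (0.65, adjusted p = 6.31e-06). Rps27a, which is made as a fusion with ubiquitin, went from 1160 ± 71.6 to 2235 ± 39.1 CPM (0.95, adjusted p = 1.58e-09). Of 9 genes whose proteins line or surround the exit tunnel, 6 rose and none fell, with a median of 0.38, a share below that of all members. Rpl4, whose loop narrows the tunnel, rose from 2827 ± 142 to 4598 ± 249 CPM (0.70, adjusted p = 2.92e-06), whereas Rpl39, at the tunnel wall, was at 808 ± 32.97 CPM in unstimulated cells and 792 ± 59.5 CPM with CpG. Of 14 genes of the 40S head, 8 rose and none fell, with a median of 0.34, a share below that of all members and near that of the other genes at 100 CPM or more.

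Several abundant members stayed close to their unstimulated level. Rps24 was at 3788, 3913 and 3958 CPM in unstimulated cells and at 4041, 3524 and 3418 CPM with CpG, a ratio of 0.942 (95% interval 0.8 to 1.11). Rps29 (ratio 0.962, interval 0.81 to 1.14), Rpl39 (0.979, 0.838 to 1.14), Rps15a (1.04, 0.887 to 1.21) and Rps16 (1.06, 0.903 to 1.23) also overlapped their unstimulated range. The upper bounds lay below 1.47, the fold change of the median member. Rps24 moved from rank 2 to rank 12 of the 83 members.

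Rps27, Rps27rt and Rpl22l1 fell with CpG. Rps27, a zinc finger protein of the small subunit (chromosome 3, 90212522 to 90213651), was at 1991, 1997 and 1908 CPM in unstimulated cells and at 949.8, 907 and 843 CPM with CpG. Its log2 fold change was -1.13 (SE 0.112, adjusted p = 1.33e-10). Rps27rt (chromosome 9, 114982366 to 114982739), a copy that shares 90.1% of its 3′ windows, was at 377, 351 and 362 CPM and at 185, 205 and 151 CPM, a log2 fold change of -1.02 (SE 0.132, adjusted p = 3.71e-08). Reads of these 2 genes cannot be fully separated, and they are not independent of each other. Rps27l, the paralog of Rps27 that is known as a p53 target and that the naming rule left out, rose, from 65.5, 72.7 and 75.01 CPM to 673, 661 and 584 CPM. Its log2 fold change was 3.17 (adjusted p = 6.16e-20). Rpl22l1, the paralog of Rpl22 (chromosome 3, 28805436 to 28807424), was at 103, 100.5 and 106 CPM in unstimulated cells and at 74.3, 46.3 and 58.4 CPM with CpG, a log2 fold change of -0.78 (SE 0.173, adjusted p = 0.000181). Rpl22l1 shared 57.45% of its 3′ windows, and 38.9% of that region overlapped the gene model Gm33051. Rpl22 rose from 946 ± 10.6 to 1489 ± 116 CPM (0.65, adjusted p = 5.73e-06). Besides Rpl7, Rpl7l1, Rpl22 and Rpl22l1, the paralog list held Rpl36a (0.77), Rpl36al (0.88), Rpl3 (0.82) and Rpl10 (0.64), all higher with CpG, and Rpl39 and Rps4x (0.20), which did not pass the test. Rps4l, a row of that list outside the rule, did not pass it either.

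IFNα alone gave few calls among ribosomal protein mRNAs, in both directions. At an adjusted p under 0.1, 5 of 83 members were higher and 3 were lower, against 12.4% and 11.9% of all genes tested, and the median log2 fold change was 0.01. The median was 0.11 without the second IFNα sample and -0.07 without the first, so that it had no stable sign. Without the second IFNα sample, 14 were higher and 2 were lower, and without the first 1 was higher and 7 were lower. Upper quartile scaling gave 4 higher and 8 lower, and scaling by library size alone gave 3 and 8. The shares of all genes above belong to the main fit. Those of the refits are not given, so the counts in them are not read against a background. Rps20, a protein of the 40S head with no shared 3′ window (chromosome 4, 3831334 to 3835665), was at 1979, 2203 and 2078 CPM in unstimulated cells and at 3064, 2531 and 2972 CPM with IFNα. The groups did not overlap, and the log2 fold change was 0.45 (SE 0.109, adjusted p = 0.00254), or 0.54 without the second sample. Rps18, another head protein, was higher by 0.37 (adjusted p = 0.0239) and its copy Rps18-ps5 by 0.49 (adjusted p = 0.0259), and these share windows. Without the second IFNα sample these values were 0.48 and 0.66, and without the first sample both calls were lost. Rpl7l1 was at 114, 89.99 and 99.97 CPM (0.41, adjusted p = 0.0467) and Rpl27 at 1292, 949.8 and 1129 CPM (0.29, adjusted p = 0.0887). Without the second sample they were higher by 0.50 and 0.40. The call of Rpl7l1 was lost in 4 of 25 alternatives and that of Rpl27 in 14 of 25, DESeq2 and scaling by library size among them.

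Rpl22l1 had the largest change with IFNα, from 103, 100.5 and 106 CPM to 66.6, 36.5 and 35.1 CPM. Its log2 fold change was -1.22 (SE 0.188, adjusted p = 6.96e-06), or -1.06 without the second IFNα sample. Rpl13a, a 60S protein that is also known as part of a complex that silences translation after interferon-γ in myeloid cells (chromosome 7, 45125558 to 45128761), was at 108, 124 and 131 CPM in unstimulated cells and at 89.8, 70.5 and 93.9 CPM with IFNα. The groups did not overlap, at -0.53 (SE 0.137, adjusted p = 0.00456) and at -0.39 without the second sample. Exons of Gm45713 and Mir5121 overlap 58.8% of the 3′ region of Rpl13a.

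With CpG + IFNα, 59 members were higher and 6 were lower than in unstimulated cells, against 37.6% and 38.8% of all genes, and the median was 0.43. These values share their unstimulated samples with the CpG comparison. Rpl7l1 (1.98), Rps2 (1.35), Rpl15 (1.12), Rpl7a (1.11) and Rpl14 (1.04) had the smallest p-values among those higher. Those lower were Rps27 (-1.33), Rps27rt (-1.35), Rpl22l1 (-0.89), Rpl39 (-0.33), Rps29 (-0.33) and Rpl37a (-0.30). Rpl39 had values of 786, 793 and 846 CPM in unstimulated cells and of 698, 601 and 639 CPM with CpG + IFNα (adjusted p = 0.00939). Upper quartile scaling gave 52 higher and 12 lower, without a share of all genes beside them.

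Directly against CpG, CpG + IFNα had no member higher and 4 lower at an adjusted p under 0.1 by edgeR, against 6.54% and 8.83% of all genes. At an unadjusted p under 0.05, 0 members were higher and 10 were lower, against 9.42% and 13.9% of all genes. DESeq2 gave 0 higher and 2 lower, against 4.96% and 4.78%. With the replicate numbers as a block, 8 were lower, a count given without the share of all genes in that fit. The median log2 fold change was -0.11, while the median over all genes was -0.04. Below 0 lay 70 of 83 members, and 15.7% of members lay above 0, against 44.8% of all genes. The SD of the member median between replicate samples was 0.134, larger than this median. Members are counted in the same libraries and are not independent. The 4 lower members were Rpl37a, Rps21, Rpl13a and Rpl39, which belong to different parts of the ribosome. Rpl37a, a 60S protein with no shared 3′ window, was at 1012, 914 and 885 CPM with CpG and at 774, 670.3 and 720.5 CPM with CpG + IFNα. The groups did not overlap (log2 fold change -0.38, SE 0.113, adjusted p = 0.0244). Rps21 was at 2261, 2062 and 1931 CPM against 1802, 1508 and 1687 CPM (-0.32, adjusted p = 0.0628), Rpl13a at 215, 209 and 199 CPM against 175, 161 and 170.1 CPM (-0.30, adjusted p = 0.0784), and Rpl39 at 860.2, 761 and 753 CPM against 698, 601 and 639 CPM (-0.29, adjusted p = 0.0789). In all 4 genes the 2 groups were separate, but the genes were picked by the test on these same samples, so that this adds no support. The share of all genes that were separate in this comparison is not given. The number of calls ranged from 0 to 10 when single samples were left out. Over 25 alternatives the call was lost in 3 for Rpl37a, 10 for Rps21, 12 for Rpl13a and 11 for Rpl39.

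Against IFNα, CpG + IFNα had 56 members higher and 5 lower, against 36.1% and 39.8% of all genes, with a median of 0.40. Rpl7l1 (1.57), Rps2 (1.18), Rpl15 (1.11) and Rpl7a (0.93) were among the larger increases, and Rps27 (-1.19), Rps27rt (-1.26), Rps20 (-0.52), Rpl37a (-0.25) and Rpl39 (-0.22) were lower. Rpl37a lost its call in 9 of 25 alternatives and Rpl39 in 12 of 25. Without the second IFNα sample, 52 were higher and 8 lower, and the shares of all genes in that refit are not given.

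The interaction tests whether the change with IFNα differs between cells with and without CpG. It was called in 1 member in the positive direction and in 2 in the negative one, against 5.84% and 7.58% of all genes. Rpl22l1, which fell with IFNα alone, was at 74.3, 46.3 and 58.4 CPM with CpG and at 61.1, 51.4 and 55.5 CPM with CpG + IFNα, so that the change with IFNα was smaller in cells with CpG (interaction 1.11, SE 0.255, adjusted p = 0.00389). Rps20 was at 2313, 2148 and 2165 CPM with CpG and at 2065, 1893 and 2027 CPM with both (interaction -0.60, SE 0.154, adjusted p = 0.0105). Against CpG, the change of Rps20 with CpG + IFNα did not pass the test (-0.15, adjusted p = 0.45). Rps18-ps5 had an interaction of -0.58 (SE 0.203, adjusted p = 0.071), a call that was lost in 13 of 24 alternatives. Without the second IFNα sample 15 members were called in the negative direction, and with the replicate numbers as a block 4 were. The 7.58% of all genes belongs to the main fit. The shares in these other fits are not given, so the counts are not read as a result about members.

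Change with CpG was set beside the properties of the genes, where 74.7% of all members and 36.5% of all genes tested were higher. Members with more than 50% of windows shared had 29 of 34 higher and a median of 0.66, those with none shared had 6 of 10 higher and a median of 0.37, and the 39 between had 27 higher and a median of 0.46. The rank correlation between shared windows and log2 fold change was 0.30 across the 83 genes, which are not independent. Of 31 tested members with a run of at least 8 C or T near the annotated start, 25 rose and 2 fell, with a median of 0.56, and of 28 without it 20 rose and 1 fell, with a median of 0.46. With CCGGAAG in the window, 22 of 23 rose (median 0.56), against 23 of 36 without it (median 0.47). These differences were not tested.

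**Figure D5:**
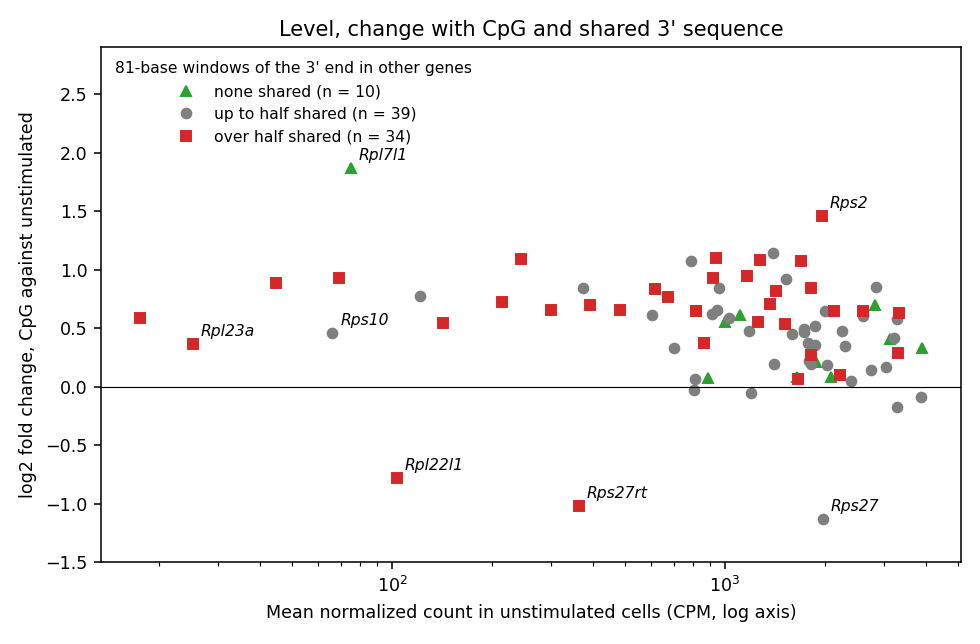
Log2 fold change with CpG (vertical axis) against the mean CPM in unstimulated cells (horizontal log axis) for 83 genes, by the portion of 81-base windows of the 3′ end that other genes share. Genes with over 50% of windows shared include Rps2 at 1.46, and the 10 with none shared lie between 0.07 and 1.87.

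Other genes of the translation machinery were counted for comparison, against the 36.5% of all genes that were higher and the 38.4% that were lower with CpG. Of 5 ribosomal or ribosome-bound proteins outside the naming rule, 4 rose with CpG and 1 fell. Rack1, a scaffold on the 40S head, went from 3415 ± 77.3 to 5443 ± 649 CPM (log2 fold change 0.67, adjusted p = 1.64e-05), and Rpsa, another 40S protein, from 1903 ± 63.3 to 2623 ± 198 CPM (0.46, adjusted p = 0.00106). Fau, which encodes a ubiquitin-like protein fused to Rps30, fell from 1709 ± 61.8 to 1050 ± 89.7 CPM (-0.70, adjusted p = 1.66e-06). Of 16 other mRNAs known to carry a TOP stretch, 13 rose and 2 fell with CpG, with a median of 0.91. The nucleolar chaperone Npm1 rose from 659, 605 and 804 CPM to 4944, 4921 and 5054 CPM (2.85, adjusted p = 1.76e-18), and the elongation factor subunit Eef1g by 1.46 on the log2 scale. The 2 that fell were Tpt1 (-0.70) and the initiation factor subunit Eif3f (-0.46). Of 8 dedicated chaperones of ribosomal proteins tested, 7 rose and 1 fell, with a median of 1.47. Heatr3, which serves Rpl5 and Rpl11, rose from 19.9 ± 6.55 to 145 ± 8.03 CPM (2.87, adjusted p = 2.66e-15), and Ltv1, a 40S assembly factor, by 1.65.

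Of 6 regulators, 3 rose with CpG, against 36.5% of all genes and 51.9% of the other genes at 100 CPM or more, so that their number was close to the background. Larp1, which binds the TOP stretch, went from 166.5, 124 and 155 CPM to 658, 619 and 596 CPM (2.06, adjusted p = 5.28e-16) and was higher still with CpG + IFNα (0.33 against CpG, adjusted p = 0.042). Eif4ebp1, a translation repressor under mTORC1, rose by 1.44 on the log2 scale. Its relative Eif4ebp2 was at 216 ± 15.6 CPM with CpG and at 156 ± 12.8 CPM with CpG + IFNα (-0.47, adjusted p = 0.00278), and the interaction was -0.74 (adjusted p = 0.00182). Of 75 tested genes of mitochondrial ribosomal proteins, which belong to the separate ribosome of mitochondria, 96.0% rose with CpG, with a median of 1.39 against 0.56 in cytosolic members. This difference between the 2 ribosomes was not tested.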

How the data were processed

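RNA of sorted FO B cells was measured in 12 samples, 3 in each of 4 groups taken from the sample titles. The deposited table holds raw UMI counts for each gene. By their methods and the labels, barcodes were extracted with UMI-tools 1.1.2, reads trimmed with Trim Galore 0.6.7, mapped to GRCm38 with HISAT2 2.2.1 and assigned with featureCounts 2.0.1, and unique UMIs were counted. Depth was 922450 to 2923865 counts per sample.

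These counts were scaled by TMM, filtered with filterByExpr and tested with edgeR 4.0.16 (R 4.3.3), which fitted all 4 groups with glmQLFit and glmQLFTest over 9431 genes. Members were called at a Benjamini-Hochberg adjusted p under 0.1 over all of them. SE is the size of the log2 fold change divided by the square root of F. Positions and shared 3′ windows came from GENCODE M21. The members and lists were chosen with earlier results of these data known. Genes named were the 5 members with the smallest p in each direction and comparison, the 5 highest and lowest in unstimulated cells, the role groups, and members that failed the filter, except that 3 members are not reported by name here. Genes named as close to their unstimulated level, those in the example lists, and Rpl41 were chosen after their values were seen.

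Alternatives were other scalings, filters and thresholds, DESeq2 1.42.0, fits restricted to the groups at hand, thinning of libraries to equal totals, a replicate block, copies added to their member, and each sample left out. Members without named copies, and members with mostly unshared 3′ ends, were added after the data were seen. Replicate numbers were not treated as pairs in the main fit, and neither the labels nor the methods name pairs. The correlation of deviations in same-numbered samples, from -0.065 to 0.205, was over 0.1 in 5 of 18 pairs. On the other side, 10 of 12 samples correlated best with their own number. A factor shared by same-numbered samples was not tested, and the main tests do not take it into account. Within the 12 replicate pairs, chi-square against counting error ranged from 1.93 to 6.96 per degree of freedom, and no pair was counted as 1 sample.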

Additional observations from a re-analysis of the deposited data

Results flagged for a closer look

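The interaction term of edgeR was called in the positive direction in 1.2% of members and in the negative one in 2.41%. Over all genes tested these shares were 5.84% and 7.58%, so the number called is not read as a trait of members. The 3 members called were Rpl22l1, Rps20 and Rps18-ps5. The log2 values were 1.109 for Rpl22l1 (adjusted p = 0.00389), -0.599 for Rps20 (adjusted p = 0.0105) and -0.578 for Rps18-ps5 (adjusted p = 0.071). Without the second IFNα sample they were 0.949, -0.686 and -0.751. For Rps18-ps5 the call was lost in 13 of 24 alternatives, and its values in these ranged from -0.751 to -0.424. Rps18-ps5 shares 77.5% of its 3′ windows with other genes, Rpl22l1 shares 57.4%, and Rps20 shares none.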

How the results depend on the processing

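No called value of a named member changed sign. The median change of members with IFNα, 0.01, lay near 0 and ranged from -0.082 to 0.114, below 0 with upper quartile factors (-0.064), library size only (-0.082) and without IFNα sample 1 (-0.072), among others. The medians of the other comparisons kept their sign. The balance of calls with IFNα was 5 higher and 3 lower, against 12.4% and 11.9% of all genes. It turned to 4 and 8 with upper quartile factors, 3 and 8 with library size only, and 1 and 7 without IFNα sample 1. For counts under alternatives in this section, shares of all genes are not given. Of the values that answer a comparison, 437 stayed under an alternative within 1.5 times of a count or within the SD between samples, and 72 moved further. Among the named members, 112 of 136 called values kept their call under every alternative run, and of 188 uncalled values 97 changed sign under at least 1. Scaling shifted the median change of all genes by 0.13 with upper quartile factors and by at most 0.082 with the others. The cause of each shift was not tested, except that stricter thresholds and fewer members lower a count by construction.

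With a fold change over 2 as well, members higher and lower numbered 0 and 1 for IFNα, 8 higher for CpG, 5 and 2 for CpG + IFNα, 0 lower for CpG + IFNα against CpG, 5 and 2 against IFNα, and 0 lower in the interaction. Among the 41 members with mostly unshared 3′ ends, they were 2 and 0 for IFNα, 27 and 1 for CpG, 26 higher for CpG + IFNα, 24 higher against IFNα, and 0 and 1 in the interaction. Upper quartile factors gave 8 lower for IFNα, 12 lower for CpG + IFNα and 9 lower against CpG. Library size only gave 3 higher and 8 lower for IFNα, 3 lower for CpG + IFNα against IFNα and 1 lower in the interaction. TMM without rRNA and mitochondrial genes gave 5 lower for IFNα, 1 lower against CpG, 3 lower against IFNα and 1 lower in the interaction, and member shares of 13.5% in unstimulated cells and 16.9% with CpG + IFNα. At least 10 counts in every sample gave 5 lower for IFNα and 8 lower for CpG + IFNα against IFNα. All genes with at least 1 count gave 3 lower for CpG + IFNα, 0 lower against CpG, 3 lower against IFNα and 1 lower in the interaction. For CpG + IFNα against CpG, size factors of DESeq2 gave 1 lower, DESeq2 itself 2, only the groups compared 7 and an adjusted p under 0.05 gave 1. Only the groups compared gave 3 lower against IFNα. The interaction had 1 lower with DESeq2, with an adjusted p under 0.05 and without members named as copies. The replicate block gave 8 lower for CpG + IFNα against CpG and 4 lower in the interaction and moved no other count by over 1.5 times. In deviations from group means, 10 of 12 samples correlated best with their own number, a hint from the data and not from the design. Hbb-bs, a globin gene, was highest in the sample numbered 1 and lowest in that numbered 3 in all 4 groups.

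Leaving out each sample in turn gave 1 to 14 higher and 2 to 7 lower for IFNα, 0 to 10 lower for CpG + IFNα against CpG, 3 to 8 lower against IFNα and 1 to 15 lower in the interaction. For IFNα, 3 were higher without unstimulated sample 1 or 2, and 1 higher and 7 lower without IFNα sample 1. For CpG + IFNα against CpG, 0 were lower without CpG sample 1 or CpG + IFNα sample 2, and 1 without unstimulated sample 3, CpG sample 2 or CpG + IFNα sample 3. Against IFNα, 3 were lower without unstimulated sample 3, IFNα sample 1 or 3, or CpG + IFNα sample 2 or 3. The interaction had 1 lower without unstimulated sample 2 or 3, IFNα sample 1 or 3, CpG sample 1 or 2, or CpG + IFNα sample 2 or 3. Without IFNα sample 2, these counts were 14 higher for IFNα, 10 lower against CpG, 8 lower against IFNα and 15 lower in the interaction.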
